A study of Mus musculus with 3 samples.

Results

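The comparison described here set mouse embryonic stem cells labelled DAXX knockout against wildtype cells, at the level of RNA from genes and from repeated sequence. Its members were the genes with at least 1 CPM (the usual unit of read counts scaled by library size) in either of the 2 libraries, which were 13151 of the 24006 gene symbols counted. The study sequenced polyadenylated RNA from 3 cultures with 1 library each: wildtype clone WT26, DAXX knockout clone KO2-3 (DAXX-/-) and ATRX knockout clone KO1-44 (ATRX-/-). All were male, isogenic stem cells of C57BL/6x129sV background, edited with CRISPR, grown with serum and leukaemia inhibitory factor and passaged off feeder cells onto gelatin before RNA was taken. Each genotype was 1 clone and 1 library, so differences between clones and differences between genotypes cannot be told apart, and no test of genotype was possible.

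DAXX is a histone chaperone. It carries the replacement histone H3.3 and, with the chromatin remodeller ATRX, deposits it in heterochromatin at telomeres, satellite repeats and the bodies of endogenous retroviruses, where it is linked to the repressive mark H3K9me3. DAXX also resides in PML nuclear bodies and binds SUMO-modified proteins. In stem cells the intracisternal A-particle (IAP) retroviruses are a known class of sequence held silent by this system.

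The rule for a call asked that a ratio's 95% interval lie past 2-fold throughout. The interval is the exact conditional binomial interval of the 2 read counts. It covers counting error only, and the calls compare these libraries. Read counts below are given in the order wildtype, DAXX knockout, ATRX knockout. Values called log2 folds compare the DAXX knockout library with wildtype, with the 95% interval in brackets. A gene with 0 reads was set to a floor of 3 reads in its library, and its fold is then given at that floor. The fold at the floor is not a minimum, since the interval uses the count itself and reaches nearer to no change. For Gdpd3, below, the log2 fold was 3.41 at the floor and the interval began at 3.00.

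The libraries held 14080945, 11336399 and 14097738 aligned reads, and 77.0% to 78.9% of reads were aligned. Daxx itself, on chromosome 17 (33909414 to 33915590, plus strand), had 1125, 623 and 972 reads, a log2 fold of -0.44 (-0.59 to -0.30). Daxx RNA thus remained at 73.6% of its wildtype level in the library labelled DAXX knockout, and reads were counted at all 4 of its annotated transcripts. How reads shared by the 4 were placed is not stated, so these counts do not show which were present. Small edits need not remove a messenger RNA, and no label used here gives the position of the edit, so the Daxx count does not check the label. Atrx had 4582, 3576 and 1800 reads, with 0.05 (-0.01 to 0.12) as the log2 fold of the DAXX knockout, close to no change. The stem cell label was checked against 29 markers of the pluripotent state, all of which were detected. Pou5f1, the core pluripotency factor, had 17316, 15917 and 17781 reads, and Zfp42, a marker of naive stem cells, had 13787, 10138 and 12391 reads.

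In the DAXX knockout library 64 genes were called higher, 0.487% of the genes tested, and 204 were called lower, 1.55%. The median log2 fold over all tested genes was 0.02, and 84.0% of genes lay within 1.5-fold of wildtype. Most calls were made on genes of low level in wildtype. The median wildtype level was 8.51 CPM for genes called higher and 5.17 CPM for genes called lower, against 24.2 CPM for all tested genes. Of the genes above 100 CPM in wildtype, 4 of 2204 were called higher and 10 were called lower. Among the 12337 genes that reached 1 CPM in both libraries, 53 were called higher and 96 were called lower. The other 108 genes called lower passed the level filter through the wildtype library alone, and 11 genes called higher passed it through the DAXX knockout library alone. At the edge of the rule, the genes just inside were Mras, with 862 and 1416 reads in wildtype and DAXX knockout and a log2 fold of 1.13, and Krt20, with 17 and 1 and -3.68. Just outside were Nynrin, with 1898 and 3017 reads, a log2 fold of 1.08 and a lower bound of 0.996, and Gpr179, with 38 and 6 reads, -2.25 and an upper bound of -0.999. Calls of Mras, Rgcc and Zmat4 ended both with total gene counts as the scale and with thinned counts, as did that of Nkx6-3.

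**Figure D1:**
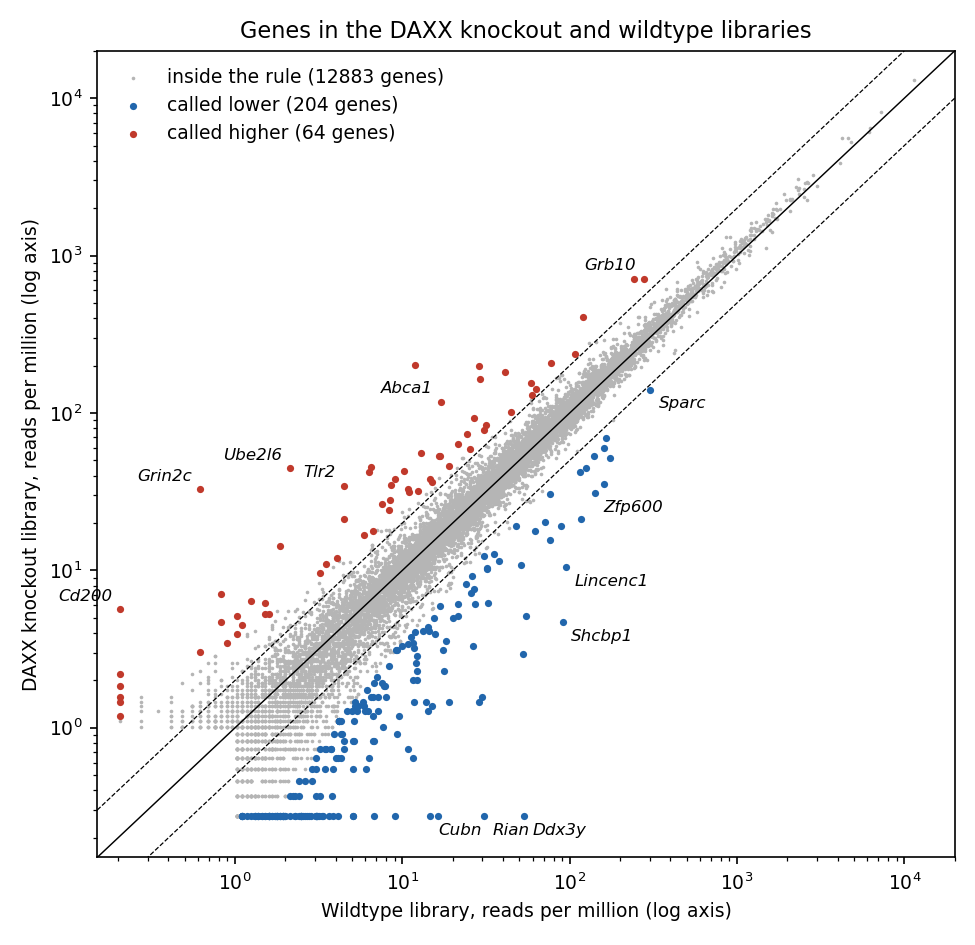
Level (CPM) of each tested gene in the wildtype (x axis) and DAXX knockout (y axis) libraries, both on log axes, with counts under 3 drawn at 3 reads. The solid line marks equal levels and the dashed lines 2-fold, and the 204 genes called lower extend to the floor along the bottom edge while the 64 called higher lie mostly below 100 CPM in wildtype.

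Grin2c, which encodes the GluN2C subunit of the NMDA glutamate receptor, had the farthest interval among the genes called higher. It lies on chromosome 11 (115249169 to 115267243, minus strand) and had 9, 359 and 328 reads. Both knockout libraries were far above the wildtype library, and the log2 fold was 5.73 (4.79 to 6.87). It was the 1 called member among 20 tested genes of glutamate receptors and synapses, a list whose median log2 fold was -0.03. Ube2l6, an interferon-inducible enzyme that attaches ISG15 to proteins, had 31, 485 and 313 reads and a log2 fold of 4.38 (3.85 to 4.95). Cd200, a surface glycoprotein that restrains myeloid cells, had 2, 62 and 227 reads and a log2 fold of 5.36 (3.45 to 8.44). The predicted gene Gm17167 had 172, 2212 and 911 reads and a log2 fold of 4.10 (3.87 to 4.33).

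In 3 genes called higher no wildtype read was counted. Gdpd3, a phospholipase of the glycerophosphodiester family, had 0, 24 and 25 reads, 10.6-fold higher at the floor. Nlrp9c, an inflammasome-type receptor gene, had 0, 13 and 2 reads, 5.76-fold higher at the floor. The predicted gene Gm2824 had 0, 16 and 1 reads. Gdpd3 was thus counted in both knockout libraries, while Nlrp9c and Gm2824 were counted mainly in the DAXX knockout library. These counts are small, and all 3 genes were under 1 CPM in wildtype.

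For description, 42 of the genes called higher were placed in 5 groups by known role. The grouping was made after the calls were seen, so its counts are not evidence about any role. Immune and surface genes made up 10 of them, with a median log2 fold of 2.07. Tlr2, the receptor for bacterial lipoproteins, had 65, 377 and 558 reads and a log2 fold of 2.95 (2.56 to 3.35). Irak3, an inhibitor of that receptor's signalling, had 187, 606 and 589 reads and a log2 fold of 2.11 (1.87 to 2.35). Cd59a, which blocks the complement membrane attack complex, had 22, 68 and 48 reads, and Ifitm3, a restriction factor against entering viruses, had 852, 1698 and 1191 reads. In Tlr2, Irak3, Cd59a and Ifitm3 the 2 knockout libraries were both above wildtype. The other members were Gpa33, Nlrc4 and Raet1e, at log2 folds from 1.53 to 2.03.

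Transcription factors were 9 of the genes called higher, with a median log2 fold of 1.72. Pou4f2, a POU-domain factor of retinal ganglion cells, had 92, 457 and 430 reads and a log2 fold of 2.72 (2.40 to 3.06). Bcl11a, the zinc finger repressor of fetal globin, had 27, 157 and 160 reads and a log2 fold of 2.95 (2.35 to 3.60). Etv1, Sox21, Msc, Sall3, Vax2 and Runx1t1 had log2 folds between 1.51 and 1.93, and the calls of Vax2 and Runx1t1 ended with total gene counts. Nkx6-3, a homeobox factor of the stomach, differed between the knockouts: it had 218, 399 and 63 reads, so the DAXX knockout library was the highest and the ATRX knockout library the lowest of the 3. The log2 folds against wildtype were 1.28 (1.04 to 1.53) in the DAXX knockout library and -1.72 in the ATRX knockout library.

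Genes of neural receptors, adhesion and the cytoskeleton made up 8, with a median log2 fold of 1.93. Epha4, an ephrin receptor of axon guidance, had 420, 1786 and 2495 reads and a log2 fold of 2.50 (2.34 to 2.66). Dclk2, a microtubule-associated kinase, had 599, 1978 and 2180 reads, and Fmn2, a formin that nucleates actin in oocytes, had 148, 468 and 714 reads. The teneurin Tenm4 had 387, 1008 and 883 reads, and Eps8, an actin-capping adaptor of the EGF receptor, had 355, 801 and 1766 reads. At the scaled level, Epha4, Fmn2 and Eps8 were higher in the ATRX knockout library than in the DAXX knockout library, and Dclk2 and Tenm4 were lower there. Sgip1 and Actn3 had log2 folds of 1.29 and 1.23, calls that ended with total gene counts.

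Genes of lipid handling, transport and metabolism made up 7. Abca1, the exporter of cellular cholesterol to apolipoprotein A-I, had 247, 1286 and 921 reads and a log2 fold of 2.79 (2.59 to 2.99). It was the 1 called gene among 35 tested genes of cholesterol and lipid transport, whose median log2 fold was -0.01. Slc38a6, of the amino acid transporter family, had 1744, 4431 and 3934 reads and a log2 fold of 1.76 (1.68 to 1.84). Ccrn4l, which encodes the circadian protein nocturnin, had 3523, 7725 and 6784 reads and a log2 fold of 1.54 (1.49 to 1.60). Slc38a6 and Ccrn4l thus started from a high wildtype level, unlike the near-silent genes above. Car2, a carbonic anhydrase, had 456, 911 and 1723 reads and was highest in the ATRX knockout. B4galt6, a lactosylceramide synthase, had 909, 1545 and 2015 reads, and Dhrs3, a retinal reductase, had 13, 38 and 51 reads; both calls ended with total gene counts.

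Signalling and matrix genes made up 8. Sfrp2, a secreted WNT antagonist, had 124, 383 and 562 reads and a log2 fold of 2.04 (1.74 to 2.34). Sned1, a matrix protein, had 94, 493 and 326 reads and a log2 fold of 2.80 (2.48 to 3.14). Grb10, an imprinted adaptor that restrains insulin signalling, had 4055, 7800 and 13369 reads and a log2 fold of 1.35 (1.30 to 1.41). Hunk, Prex2, Mras, Rgcc and Paqr8 had log2 folds between 1.13 and 1.57, and the call of Hunk ended with total gene counts and that of Paqr8 with its most abundant transcript. Outside these groups, Kbtbd11, a kelch and BTB domain gene, had 415, 2184 and 2516 reads and a log2 fold of 2.81 (2.65 to 2.96). The remaining named genes were Ccdc85a, Dnajc21, Dusp27, Etl4, Fam159b, Fam25c, Nuggc, Pabpc6, Sfi1, Skida1, Vax2os and Zmat4, with log2 folds from 1.14 to 3.15. Among these, Dnajc21 was not called with total gene counts, nor Fam159b and Vax2os with thinned counts, nor Ccdc85a, Nuggc, Skida1 and Vax2os by their most abundant transcript. Over all 64 genes, the median log2 fold was 1.81 without DAXX and 1.37 without ATRX, both against the same wildtype library.

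Among the genes called lower, 18 had no read in the DAXX knockout library and 70 had 3 or fewer. The long noncoding RNAs Meg3 and Rian are neighbours on chromosome 12 (Meg3 at 109541001 to 109571726, Rian at 109603940 to 109661716, both plus strand). They belong to one imprinted domain, whose noncoding RNAs come from the maternal chromosome. Meg3 had 237, 0 and 0 reads, 59.4-fold lower in the DAXX knockout at the floor. Rian had 448, 0 and 6 reads, 112-fold lower at the floor. Both were thus at or near 0 in both knockout libraries and were counted in wildtype at the highest level of the 3.

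Among 17 tested imprinted genes of maternal expression, Meg3 and Rian were called lower, Grb10 was called higher, and the median log2 fold was -0.12. The 4 most abundant of the others stayed within 1.5-fold of wildtype in the DAXX knockout library. Gnas, a G protein subunit, had 2591, 2448 and 4066 reads, and Nap1l4, a histone chaperone, had 2539, 1991 and 2818 reads. Cd81, a tetraspanin, had 2226, 1878 and 3466 reads, and Igf2r, the receptor that clears IGF2, had 1835, 1026 and 1661 reads. Among 22 tested imprinted genes of paternal expression, only Igf2, the growth factor, was called, with 68, 14 and 66 reads and a log2 fold of -1.87 (-2.81 to -1.03), a call that ended with thinned counts and with its most abundant transcript. The median of that list was -0.15. Peg10, a retrotransposon-derived gene, had 992, 348 and 764 reads and a log2 fold of -1.10 (-1.28 to -0.92), whose interval reached across 2-fold.

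Y-linked genes were called lower in 4 of 5 tested, with a median of -4.26, or -2.30 with no filter on low counts. The background is 1.55% of all genes tested. Ddx3y, an RNA helicase, had 775, 0 and 0 reads and was 194-fold lower at the floor. Eif2s3y, a translation initiation factor subunit, had 768, 32 and 705 reads and a log2 fold of -4.17 (-4.73 to -3.66). Uty, a histone demethylase family member, had 434, 17 and 178 reads, and Uba1y, a ubiquitin-activating enzyme, had 60, 1 and 21 reads. The DAXX knockout library was lowest or tied in all 4, and Ddx3y alone was also at 0 in the ATRX knockout. Kdm5d, a demethylase, had 88, 49 and 35 reads and was not called. All 4 called genes lie within 468 kb on chromosome Y, a span that also holds Kdm5d. Each of the 4 has an X-linked relative of similar sequence, so a few reads may be exchanged between copies.

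The X chromosome held no gene called higher and 27 called lower among 443 tested, 6.09%, although its median log2 fold was 0.00. Of 9 tested X-linked homeobox and cancer-testis genes, which are normally expressed in the germ line and placenta, 6 were called lower and the list median was -3.05. With no filter on low counts the median was -1.59, as few of the 38 listed genes reached 1 CPM. Fmr1nb, a testis antigen, had 131, 0 and 0 reads and was 32.9-fold lower at the floor. Mageb16, of the MAGE antigen family, had 800, 56 and 48 reads and a log2 fold of -3.43 (-3.84 to -3.03). Xlr3a, of the lymphocyte-regulated cluster, had 56, 0 and 1 reads, 14-fold lower at the floor. In each of Fmr1nb, Mageb16 and Xlr3a the 2 knockout libraries were both far below wildtype.

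The reproductive homeobox genes Rhox5, Rhox6 and Rhox9 stand together on chromosome X (37804842 to 37901770) and were all called lower, with no other tested gene in that span. Rhox5 had 253, 34 and 7 reads, Rhox6 had 55, 4 and 3 reads and Rhox9 had 44, 4 and 4 reads. Their log2 folds were -2.49 (-3.05 to -1.96), -3.37 (-5.30 to -1.93) and -3.05 (-4.99 to -1.59), and in Rhox5 the ATRX knockout was lower than the DAXX knockout. Rhox10, Rhox13 and Tktl1 of the same list were not called, at 16 to 24 wildtype reads. A second group on chromosome X (135579555 to 136085255) held the RNA export factor genes Nxf7 and Nxf3 and the clone-named gene 1700008I05Rik among 10 tested genes. Nxf7 had 24, 1 and 1 reads and Nxf3 had 27, 0 and 6 reads, and Nxf7 was not called by its most abundant transcript.

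Germ cell and meiosis genes gave 10 called lower and 0 called higher among 36 tested, with a list median of -0.92. The share called lower over all genes tested was 1.55%. In total 33 of the 36 lay below 0. Piwil2, which loads piRNAs that silence transposons in the germ line, had 1112, 333 and 416 reads and a log2 fold of -1.33 (-1.51 to -1.15). Tex19.1, a protector of the germ line against retrotransposons, had 1036, 221 and 355 reads and a log2 fold of -1.82 (-2.03 to -1.61). Dnmt3l, the cofactor of de novo DNA methylation, had 905, 195 and 411 reads and a log2 fold of -1.80 (-2.03 to -1.58). Piwil2, Tex19.1 and Dnmt3l kept 195 or more reads in the DAXX knockout, so their RNA was reduced and not absent.

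Dazl, a translational regulator of germ cells that binds RNA, had 104, 17 and 19 reads and a log2 fold of -2.20 (-3.04 to -1.45). Genes of the meiotic chromosome axis and cohesin followed: Hormad2 had 139, 13 and 31 reads, Stag3 had 690, 209 and 365 reads and the X-linked crossover gene Tex11 had 394, 67 and 165 reads. By its most abundant transcript Stag3 was not called. Tuba3a, Rpl10l and Slc25a31, testis forms of tubulin, a ribosomal protein and the adenine nucleotide carrier, had log2 folds of -2.35, -2.11 and -2.52. Outside the list, the genes with the farthest bounds included Sohlh2, a transcription factor of early oocytes and spermatogonia, with 258, 25 and 50 reads, Rec114, needed for meiotic DNA breaks, with 88, 6 and 5 reads, and Aurkc, the meiotic aurora kinase, with 48, 2 and 5 reads. The 4 most abundant members not called were Mov10, Tex14, Ddx4 and Syce2, at log2 folds of 0.46, -0.33, -0.42 and 0.09.

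Markers of primitive endoderm, the extraembryonic lineage that arises beside the epiblast, gave 14 called lower of 28 tested and a list median of -1.48. At 5 CPM the median was -1.11. Over all genes tested, 1.55% were called lower. Gata4 and Gata6, the zinc finger factors of that lineage, had 97, 9 and 75 reads and 38, 2 and 21 reads. Sox17, another of its factors, had 20, 0 and 8 reads, and Pdgfra, its surface receptor, had 35, 2 and 10 reads. All 4 were low in wildtype and at 9 or fewer reads in the DAXX knockout, while the ATRX knockout kept 8 to 75 reads. These 4 genes passed the level filter through the wildtype library alone. By its most abundant transcript Sox17 was not called.

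Endocytic receptors of visceral endoderm were also low. Cubn, which encodes cubilin, had 213, 2 and 23 reads and a log2 fold of -6.32 (-9.38 to -4.45). Amn, its membrane partner amnionless, had 33, 4 and 24 reads, and Dab2, the adaptor for their uptake, had 135, 10 and 41 reads. The more abundant basement membrane genes of the list kept more of their RNA. Sparc, a collagen-binding glycoprotein, had 4408, 1536 and 2587 reads and a log2 fold of -1.11 (-1.20 to -1.03). Col4a1 and Col4a2, adjacent collagen IV genes on chromosome 8, had 1702, 231 and 1107 reads and 740, 118 and 471 reads, and Lama1, the laminin alpha chain of early basement membrane, had 1661, 457 and 680 reads. Lamc1, the laminin gamma chain, had 10432, 10526 and 11457 reads and a log2 fold of 0.42 (0.38 to 0.46), and Apoe had 2659, 2590 and 5382 reads; neither was called.

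Summed over the 28 markers, the level was 2055 CPM in wildtype, 1915 CPM in the DAXX knockout and 2061 CPM in the ATRX knockout. Lamc1 was the largest contributor. In bulk RNA, fewer cells of a type and less RNA per cell cannot be told apart. Pou2f3 and Smoc1 lay outside the list and were also called lower, with log2 folds of -4.21 and -3.48. Shcbp1, a partner of the SHC adaptor in dividing cells and on the mitosis list, had 1318, 51 and 272 reads and a log2 fold of -4.28 (-4.71 to -3.88). It was the 1 called gene of 39 tested mitosis genes, whose median was -0.01.

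Trophoblast markers gave 4 called lower of 16 tested, where 1.55% of all genes tested were lower. Their median was -0.70, or -0.33 with no filter on low counts. Of the 16, 6 lay above 0, the highest at 0.93. The sum over the 16 markers was 375, 340 and 324 CPM. The 4 called lower were Krt19, Esx1, Rhox6 and Rhox9, and Rhox6 and Rhox9 are also among the X-linked genes above. Krt19, an epithelial keratin, had 219, 15 and 79 reads and a log2 fold of -3.46 (-4.32 to -2.70). Esx1, a placental homeobox factor, had 98, 21 and 94 reads, so its ATRX knockout value was near wildtype. The call of Esx1 ended with its most abundant transcript.

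Markers of feeder fibroblasts and contractile cells gave 6 called lower of 24 tested, where 1.55% of all genes tested were lower. Their median was -0.80, or -0.42 with no filter on low counts. Col1a1 and Col1a2, the collagen I chains that define fibroblasts, had 73, 14 and 31 reads and 26, 1 and 6 reads. Acta2, smooth muscle actin, had 21, 1 and 2 reads, and Tagln, an actin-binding protein of the same cells, had 207, 48 and 83 reads. Thbs1, a matrix glycoprotein, had 202, 16 and 56 reads. Fn1, the matrix protein fibronectin, had 18917, 17950 and 22730 reads and was not called. The sum over the 24 markers, most of it Fn1, was 1717, 1929 and 2046 CPM. The wildtype library therefore held the most RNA of the defining fibroblast collagens, and how far feeder cells or differentiated cells in that culture account for the genes called lower was not tested.

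Pluripotency genes stayed near wildtype: none of 29 tested was called, the median log2 fold was 0.24, and 21 lay above 0. Tfcp2l1, a naive state factor, had 8487, 9214 and 10432 reads and a log2 fold of 0.53 (0.49 to 0.57). Tdgf1, the Nodal coreceptor, had 10490, 6447 and 10631 reads and a log2 fold of -0.29 (-0.34 to -0.25), and Dppa5a had 12341, 8473 and 11634 reads. Lincenc1, a noncoding RNA of naive stem cells, was outside that list and was called lower, with 1381, 115 and 108 reads and a log2 fold of -3.18 (-3.46 to -2.90).

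**Figure D2:**
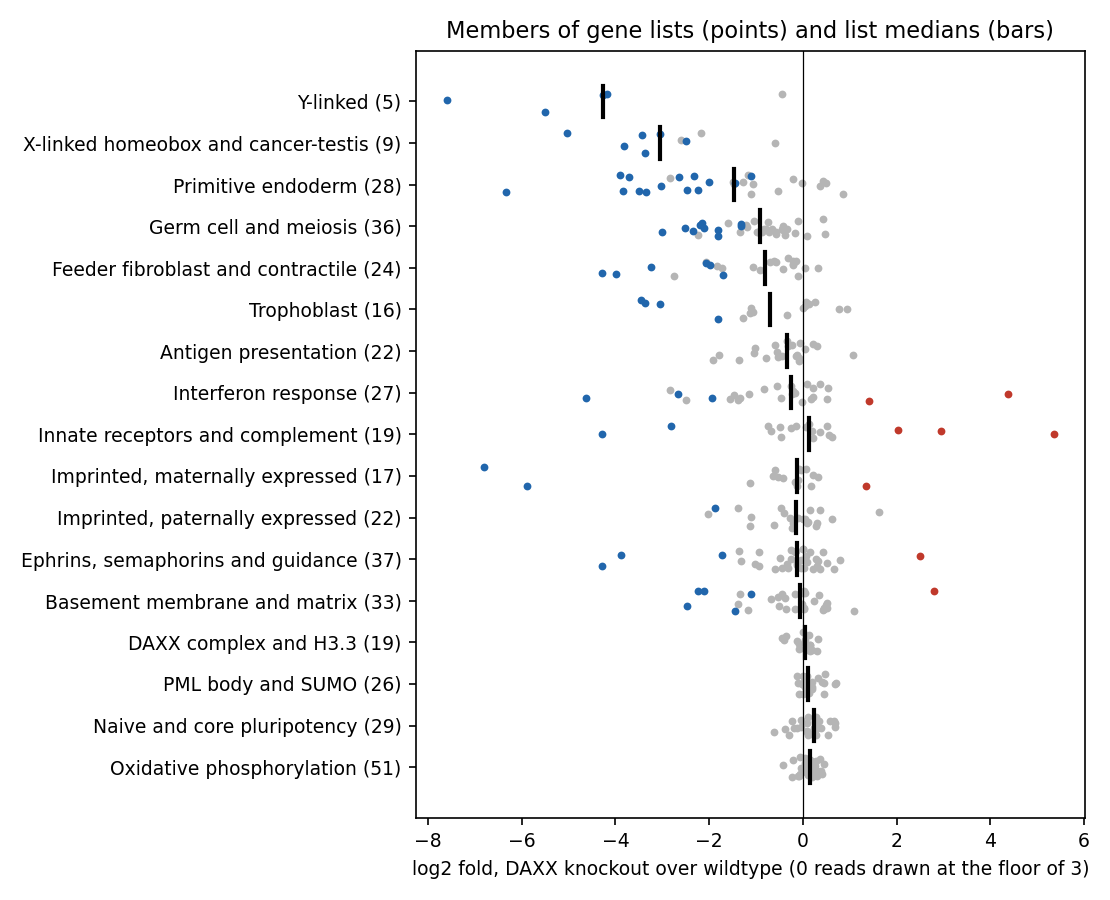
Log2 fold of the DAXX knockout over wildtype (x axis) for the tested members of 17 gene lists, with the number tested in brackets. Points are genes (blue called lower, red called higher, grey inside the rule), bars are list medians, and the 0-read genes sit at their floor value. Y-linked, X-linked germ line and primitive endoderm genes lie farthest to the left, and pluripotency and oxidative phosphorylation genes are gathered near 0.

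Interferon and innate immunity genes were called in both directions. Of 27 tested genes of the interferon response, Ube2l6 and Ifitm3 were called higher and Gbp2, Irgm1 and Igtp lower, with a median of -0.25, or -0.54 by the most abundant transcript. Gbp2, a guanylate-binding protein against intracellular pathogens, had 98, 0 and 12 reads and was 24.6-fold lower at the floor. Irgm1 and Igtp, interferon-induced GTPases, had 42, 5 and 5 reads and 61, 12 and 20 reads. Calls of Irgm1 and Igtp ended with the most abundant transcript. Ifitm2 and Ifitm1, relatives of Ifitm3, both had a log2 fold of 0.53 and were not called. Gbp2, its neighbour Gbp2b and the receptor gene Bmpr1b formed a group on chromosome 3 (141837136 to 142638008) in which 3 of 4 tested genes were called lower. Gbp2b had 53, 1 and 5 reads and Bmpr1b, a bone morphogenetic protein receptor, had 27, 2 and 8 reads.

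Among 19 tested innate receptors and complement genes, with a median of 0.13, Tlr2, Cd59a and Cd200 were called higher and Tlr3 and Cr1l lower. Tlr3, the sensor of double-stranded RNA in endosomes, had 28, 3 and 5 reads, a call that ended with thinned counts and with its most abundant transcript, and Cr1l, the complement regulator Crry, had 415, 16 and 128 reads and a log2 fold of -4.29 (-5.11 to -3.57). None of 22 antigen presentation genes was called, and their median was -0.33. The 4 most abundant of them, Calr, Pdia3, Psme1 and Psme2, had log2 folds of 0.21, 0.04, 0.30 and -0.12. In guidance genes, Epha4 was called higher and Sema3c, Sema6a and Nrp2 lower among 37 tested, with a median of -0.13. Sema3c had 26, 1 and 4 reads, Sema6a had 39, 2 and 21 reads and Nrp2, a semaphorin receptor, had 550, 125 and 171 reads. The call of Sema6a ended with its most abundant transcript.

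The partners of DAXX were near wildtype. None of 19 genes of the H3.3 pathway was called, and their median was 0.05 under the scaling used and -0.04 with total gene counts. H3f3a and H3f3b, the 2 genes for H3.3, had 12389, 10628 and 13538 reads and 11711, 6843 and 8630 reads, so their log2 folds of 0.19 and -0.36 had opposite signs. None of 26 genes of PML bodies and SUMO was called, with a median of 0.11, nor any of 29 of death receptor and JNK signalling, with a median of 0.05, which changed sign to -0.05 with total gene counts. Of 32 genes of retroelement silencing, Dnmt3l was the 1 called, and the median of 0.05 became -0.04 with total gene counts. Trim28, the corepressor that recruits H3K9 methylation to retroviruses, had 24359, 18986 and 18023 reads and a log2 fold of 0.05 (0.02 to 0.08), and Uhrf1, which guides maintenance methylation, had 5677, 5351 and 7227 reads and 0.33 (0.27 to 0.38). Oxidative phosphorylation genes were none of 51 called, with 43 above 0 and a median of 0.15, where 53.1% of all tested genes lay above 0. Clustered protocadherins, adhesion genes chosen by their names, were none of 21 called, with all 21 above 0 and a median of 0.70. Scaling by total gene counts shifted the median of all genes by -0.10.

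Positions were compared because they played no part in the calls. Of the 268 called genes, 74 stood in 31 groups whose neighbouring members lay within 500 kb. The same count was not made for other sets of tested genes, so it cannot say whether called genes stand together more than others. Most calls, 204 of 268, were lower, which bears on the directions within groups. In 21 of those groups all members were called lower, in 5 all were called higher and in 5 the directions were mixed. In 1 of the 5 groups called higher, the members were 2 predicted symbols placed at the same position on chromosome 13 (119488039 to 119611059). They are thus 1 locus, counted as 2 of the genes called higher. Groups with 3 or more called genes numbered 7. The gene families among them were the Rhox, Nxf, Gbp and Y-linked genes above and a zinc finger cluster on chromosome 4. On chromosome 6 (82946902 to 83738313) M1ap and Slc4a5 were called lower and Vax2os and Vax2 higher among 25 tested. Slc4a5, a bicarbonate transporter, had 157, 8 and 5 reads, and M1ap, a meiosis gene, had 116, 17 and 67 reads. Vax2, a homeobox factor of the ventral eye, had 22, 58 and 55 reads, and its antisense transcript Vax2os had 9, 33 and 29 reads, and without stated use of strand the 2 cannot be told apart.

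The zinc finger cluster of chromosome 4 held the largest group, of 6 called genes including the antisense gene 4933438K21Rik. It also held a second group, of 2 called genes. Between Gm13225 and Gm13157 (145510759 to 147809788) 12 coding genes were tested, 7 were called lower, and the other 5 also lay below 0. Log2 folds ran from -2.29 to -0.51 in the DAXX knockout and from -1.02 to -0.39 in the ATRX knockout. Zfp600 had 2044, 338 and 1363 reads and a log2 fold of -2.19 (-2.36 to -2.02). Rex2 had 1279, 210 and 799 reads and a log2 fold of -2.20 (-2.41 to -1.98). Gm13247 had 1102, 169 and 551 reads, 2610305D13Rik had 2339, 386 and 1272 reads and Gm13242 had 2540, 564 and 1686 reads. Zfp534 had 2340, 655 and 1345 reads and Gm13051 had 2403, 752 and 1438 reads. In all 7 the order was the same, with wildtype highest, the ATRX knockout between and the DAXX knockout lowest. Summed over all 12 coding genes, called or not, the reads numbered 20998, 6031 and 13202, a log2 fold of -1.39 (-1.43 to -1.35). Genes of this cluster are near copies of each other and can exchange reads, so the values of single members are uncertain. The tested genes on both sides were not called. Tnfrsf8, the nearest before the cluster, had 68, 25 and 43 reads and a log2 fold of -1.03 (-1.76 to -0.35). Farther out, Tnfrsf1b was at -0.40 and, on the other side, Miip was at 0.01.

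**Figure D3:**
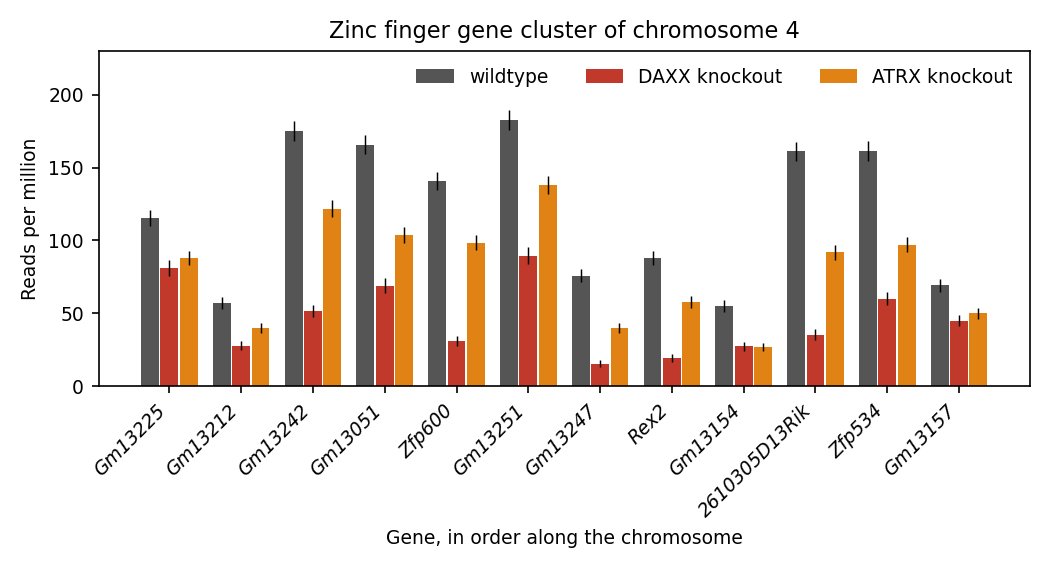
Level (CPM, y axis) of the 12 tested coding genes of the chromosome 4 zinc finger cluster, in chromosomal order (x axis), in the 3 libraries, with 95% exact Poisson intervals of the counts as error bars. The DAXX knockout bar is below the wildtype bar in all 12 genes.

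RefSeq gives a promoter window for 6 of the 7 called coding genes of the cluster, matched by name or identifier and given on build GRCm38.p6. The windows are those of Gm13242 at chr4:145670447-145670696 on the plus strand, Gm13051 at chr4:146097062-146097311 on the plus strand, Zfp600 at chr4:146156577-146156826 on the plus strand, Rex2 at chr4:147021600-147021849 on the plus strand, 2610305D13Rik at chr4:147642509-147642758 on the minus strand and Zfp534 at chr4:147702632-147702881 on the minus strand. The 250 bases before each start are printed, 5′ to 3′, because the genes were called together, with the longest run shared by all 6 in capitals.
Gm13242: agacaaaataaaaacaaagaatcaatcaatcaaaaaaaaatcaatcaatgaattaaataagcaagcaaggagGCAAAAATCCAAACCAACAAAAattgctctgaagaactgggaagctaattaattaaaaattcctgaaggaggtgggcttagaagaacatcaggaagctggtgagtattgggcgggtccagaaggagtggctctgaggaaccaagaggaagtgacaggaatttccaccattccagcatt
Gm13051: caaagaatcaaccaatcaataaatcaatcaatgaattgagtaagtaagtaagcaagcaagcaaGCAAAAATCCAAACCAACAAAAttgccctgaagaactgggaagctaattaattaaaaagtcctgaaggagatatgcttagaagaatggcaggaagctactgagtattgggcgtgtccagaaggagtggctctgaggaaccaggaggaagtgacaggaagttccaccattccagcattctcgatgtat
Zfp600: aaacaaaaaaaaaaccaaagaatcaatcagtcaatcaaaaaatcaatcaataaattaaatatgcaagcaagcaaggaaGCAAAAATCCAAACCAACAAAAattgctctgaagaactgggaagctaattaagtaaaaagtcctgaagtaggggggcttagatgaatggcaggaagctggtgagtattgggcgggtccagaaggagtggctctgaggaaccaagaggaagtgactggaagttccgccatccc
Rex2: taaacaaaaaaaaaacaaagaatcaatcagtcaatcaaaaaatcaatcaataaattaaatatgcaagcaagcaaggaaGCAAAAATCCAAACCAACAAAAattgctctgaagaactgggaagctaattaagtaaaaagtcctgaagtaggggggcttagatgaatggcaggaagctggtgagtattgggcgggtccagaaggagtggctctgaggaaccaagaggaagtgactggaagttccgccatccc
2610305D13Rik: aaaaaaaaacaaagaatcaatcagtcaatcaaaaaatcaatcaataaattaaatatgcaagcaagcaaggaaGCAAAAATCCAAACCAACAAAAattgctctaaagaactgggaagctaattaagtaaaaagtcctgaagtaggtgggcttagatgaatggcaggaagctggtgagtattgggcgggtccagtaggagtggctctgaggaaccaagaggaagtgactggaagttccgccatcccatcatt
Zfp534: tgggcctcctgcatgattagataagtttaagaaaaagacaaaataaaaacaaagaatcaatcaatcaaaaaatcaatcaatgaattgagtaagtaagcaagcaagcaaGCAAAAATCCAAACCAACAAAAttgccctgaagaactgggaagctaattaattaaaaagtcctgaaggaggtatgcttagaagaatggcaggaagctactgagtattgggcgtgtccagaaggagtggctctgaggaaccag

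Over the 15 pairs of these windows, 90.3% to 100% of aligned bases were identical, and the windows of Zfp600 and Rex2 did not differ at any aligned base. The shared run is 22 bases long and was found, on either strand, in 7 of 32851 promoter windows of the RefSeq table (0.0213%), all 7 on chromosome 4. The run was taken from the 6 printed windows, so those 6 had to be among the 7. The share is therefore no test of the run. Each window of the 6 held 1 or 2 CpG dinucleotides, against a median of 6 over all windows. All windows include those of genes not tested here. Over the 9938 tested genes with a matched window, 75.6% of those tested, the median was 16. For motifs searched on both strands, GGGCGG (the GC box) was present in 4 of the 6 and in 32.7% of all windows. It was in 62.2% of the windows matched to tested genes, near the share in the 6. The TATA box TATAAA was in 0 of the 6 and in 12.4% of all windows. The E-box CACGTG was in 0 of the 6 and in 6.02% of all windows, the cyclic AMP element TGACGTCA in 0 and 1.55%, and the E2F-type motif TCCCGC in 0 and 16.9%. Over the windows matched to tested genes, TATAAA was in 5.98%, CACGTG in 8.90%, TGACGTCA in 2.86% and TCCCGC in 32.0%. The 6 windows are near copies of each other, so their matches are not independent. A match describes letters only. A comparison of promoters between all called genes and all tested genes was void, because a window was matched for 59.4% of the genes called higher and 72.5% of those called lower, under the 80% needed.

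Chromosomes 11 and 18 differed from the rest along their whole length. For these medians only genes with at least 10 CPM in all 3 libraries were used. On chromosome 11 the median log2 fold over 726 genes was -0.21, with 601 below 0. Against that wildtype library, the ATRX knockout had a median of -0.21 over the same genes. On chromosome 18 the median over 211 genes was 0.34, with 197 above 0, and it was 0.05 in the ATRX knockout. The other autosomes and chromosome X had medians between 0.03 and 0.11. In segments of 20 Mb, chromosome 11 ran from -0.25 to -0.18 and chromosome 18 from 0.31 to 0.45, so no segment stood apart. Chromosome 11 held 26 genes called lower and 5 called higher of 1110 tested. With the median of each chromosome subtracted, an alternative added after the data were seen, 14 were called lower and 6 higher on chromosome 11, and the totals became 55 higher and 202 lower. The number of chromosome copies in each clone was not tested. Grin2c and Grb10 lie on chromosome 11 and were called higher against this shift, while Krt19, Col1a1 and Sparc lie there and share its direction. With the chromosome medians subtracted, 22 of the 268 calls ended, among them those of Col1a1, Sparc and Igtp on chromosome 11, and of Nkx6-3, Sall3 and B4galt6 elsewhere.

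**Figure D4:**
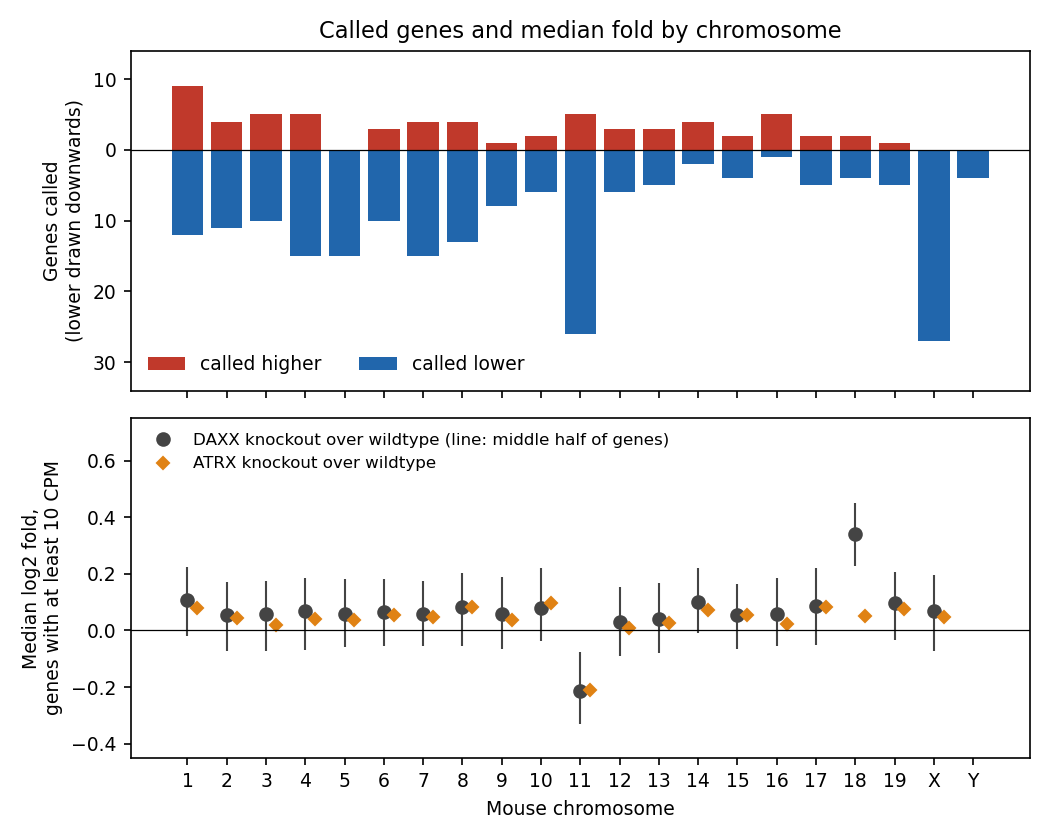
Genes called higher (red, upwards) and lower (blue, downwards) on each mouse chromosome in the upper panel, and in the lower panel the median log2 fold of genes with at least 10 CPM in all 3 libraries, with lines from the lower to the upper quartile. Chromosome 11 lies below 0 in both knockouts, chromosome 18 lies above the others in the DAXX knockout only, and the Y chromosome has too few such genes for a median.

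Repeat sequences were counted against 1564 consensus sequences, apart from genes. Their share of aligned reads was 0.703%, 0.991% and 0.776% in the order used above. Summed over all of them, the log2 fold of the DAXX knockout was 0.59 (0.58 to 0.60). Of 118 repeat sequences tested at 1 CPM, 8 were called higher, 6.78%, and none was called lower, 0%. Since each consensus stands for many genomic copies, these counts do not say which copies were transcribed, and related consensus sequences can exchange reads.

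IAP elements, endogenous retroviruses of the mouse that retain long terminal repeats, gave 4 of the 8. The coding consensus IAPEZI had 1614, 4862 and 4151 reads and a log2 fold of 2.00 (1.92 to 2.08). A second internal sequence, IAPLTR1a_I_MM, had 1395, 3753 and 3263 reads and a log2 fold of 1.84 (1.75 to 1.93). The terminal repeat RLTR1IAP_MM had 17, 158 and 107 reads and a log2 fold of 3.63 (2.90 to 4.44), and IAPA_MM had 153, 318 and 316 reads. Both knockout libraries were above wildtype in all 4, and the DAXX knockout had the higher fold in each. Summed over the family, reads numbered 3549, 9500 and 8181. The log2 folds were 1.83 (1.78 to 1.89) in the DAXX knockout and 1.27 (1.22 to 1.33) in the ATRX knockout. IAPEZI and IAPLTR1a_I_MM made up 90.7% of the family's reads in the DAXX knockout, and 4 of the 16 tested IAP sequences lay below 0.

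RLTR4 sequences, which resemble murine leukaemia virus, were called higher in the DAXX knockout and lay under 2-fold in the ATRX knockout. The internal sequence RLTR4I_MM had 505, 1788 and 586 reads and a log2 fold of 2.23 (2.09 to 2.38), against 0.28 in the ATRX knockout. Its terminal repeat RLTR4_MM had 15, 43 and 19 reads, and the related MuRRS4-int had 26, 63 and 29 reads. Both of these calls ended with total gene counts, that of MuRRS4-int also with TMM over 2 libraries, and that of RLTR4_MM with thinned counts and at 5 CPM. For the RLTR4 pair the summed log2 fold was 2.23 (2.09 to 2.37) without DAXX and 0.29 (0.11 to 0.46) without ATRX, and these intervals do not overlap. The major satellite GSAT_MM, the repeat of mouse pericentromeres, had 12, 39 and 10 reads and a log2 fold of 2.11 (1.15 to 3.18). It was called higher on few reads, was not tested at 5 CPM, and poly(A) selection limits what such a count can show.

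ETn and MusD elements were the most abundant repeats, with 61363, 70524 and 78006 reads and a log2 fold of 0.61 (0.60 to 0.63). The most abundant of them, MMETN, had a log2 fold of 0.47 (0.45 to 0.49). No member of the family was called. Among LINE-1 elements, L1MdGf had a log2 fold of 0.76 (0.70 to 0.82) and L1MdTf of 0.45 (0.41 to 0.49), while L1MdA, at 0.13, and L1MdF, at 0.19, were nearer to 0. In the ATRX knockout the same 4 subfamilies had log2 folds of -0.02, -0.58, -0.64 and -0.54. MERVL, the retrovirus of the 2-cell embryo, had 2297, 1430 and 1434 reads and a log2 fold of -0.27 (-0.37 to -0.18). Of the genes of the 2-cell stage only 6 of 20 counted were tested. None was called, and the median was -0.62, or 0.01 with no filter on low counts, so its sign rested on the filter. B2 elements had a log2 fold of -0.30 (-0.45 to -0.14).

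**Figure D5:**
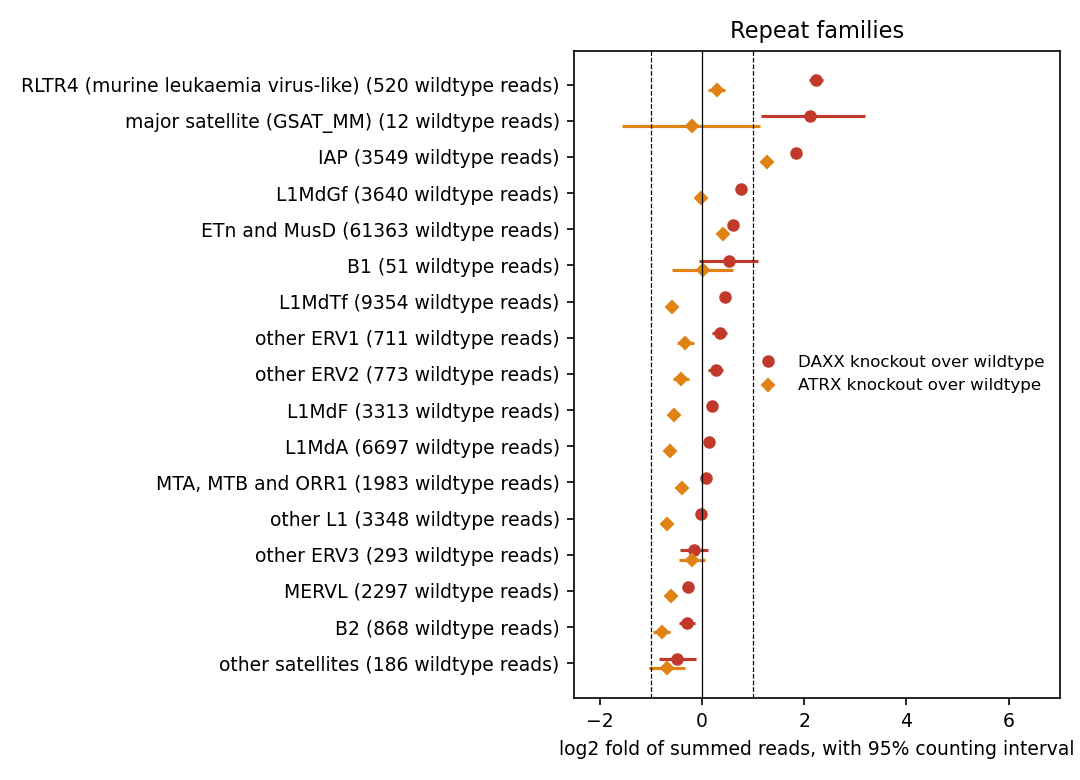
Log2 fold of summed reads (x axis) for repeat families in the DAXX knockout (red circles) and ATRX knockout (orange diamonds) against the same wildtype library, with 95% counting intervals and dashed lines at 2-fold. RLTR4, the major satellite and IAP lie past 2-fold in the DAXX knockout, and only IAP does so in the ATRX knockout.

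Counted by transcript instead of by gene, 116 of 27743 tested transcripts were called higher, 0.418%, and 242 lower, 0.872%. In 22 cases a transcript was called and its gene was not, and no gene had transcripts called in both directions. The named examples were chosen after their values were seen. Kif24, a kinesin of the centriole, had transcript ENSMUST00000131532 at 90, 348 and 288 reads, a log2 fold of 2.36 (2.02 to 2.71), while the whole gene moved by 0.86. Cdkn2a, the locus of cell cycle inhibitors, had transcript ENSMUST00000107131 at 38, 4 and 18 reads, while its gene stood at -1.91 (-2.99 to -0.96). Fam73a had transcript ENSMUST00000199397 at 80, 213 and 79 reads with its gene at 0.35. How reads shared by transcripts were placed is not stated, so values of single transcripts depend on that placement. Gene sums assume that each read was placed once. Reads counted at several transcripts would make the intervals of gene sums too narrow.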

How the data were processed

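Polyadenylated RNA was measured in 3 libraries, 1 per genotype. The deposited values are read counts per reference sequence, not normalised. Per the submitters' processing notes, the authors used Bowtie 1.1.2, SAMtools and build GRCm38.p4. Not given in the sources used here: alignment settings, the placement of reads with several equal positions, strand and annotation release. Gene sums and their intervals assume that each read was placed once. Counts of transcripts with the same symbol were summed to 24006 genes, 1564 repeat sequences were kept apart, and positions came from GENCODE M21 (build GRCm38), found for 23918 symbols by transcript and 79 by symbol.

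Library sizes were adjusted with TMM factors (trimmed mean of M values) over the 3 libraries in edgeR 4.0.16, R 4.3.3 (factors 1.04, 0.973 and 0.990), and repeat counts by the same sizes. CPM is the deposited count relative to this adjusted size. A gene or repeat with at least 1 CPM in either library was called when the whole 95% Clopper-Pearson interval of its ratio lay past 2-fold. With 1 library a group no p-value was computed, and intervals cover counting error only, since reads carry no molecular identifiers. The calculation was tested on simulated data (SciPy 1.17.1). Named genes were Daxx, Atrx, all genes called higher, the 60 called lower with the farthest bound, called and up to 4 abundant members of each list, and called genes in positional groups of 3 or more. Predicted genes were named only in such groups. Exceptions are Gm17167, Gm2824 and genes at the edge of the rule, beside the chromosome 4 cluster or named by transcript, chosen after their values were seen. Members and lists were chosen with earlier results of these data known. Alternatives covered scaling (including DESeq2 1.42.0 size factors), level filters, transcript choice, thinning and the size rule. Some items covered by the naming rule are not reported here.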

Additional observations from a re-analysis of the deposited data

How the results depend on the processing

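Direction was the same for all 246 called genes other than predicted ones under 3 other scalings, the most abundant transcript of each gene and thinned counts. The calls were less stable: 63 genes lost theirs by their most abundant transcript, 20 when counts were thinned to the smaller total, 12 with total gene counts and 1 (Mras) with TMM over 2 libraries. Counts of calls stayed within 1.5 times of 64 higher and 204 lower genes under other scalings, no filter, thinning, a 99% interval, and 2 alternatives added after the data were seen (chromosome medians subtracted; without chromosomes 11, 18 and Y, with 57 higher and 170 lower). At 5 CPM, fewer genes were tested and 108 were lower. A ratio past 2-fold with no interval gave 208 higher and 796 lower genes, and 14 higher and 3 lower repeats. A 1.5-fold bound gave 184 higher and 412 lower genes and 13 higher repeats. A 4-fold bound gave 16 higher and 50 lower genes and 2 higher repeats, and a 99% interval gave 5 higher repeats. On chromosome X, 16 in place of 27 genes were lower with the most abundant transcript. Medians of the 2-cell, X-linked, Y-linked, trophoblast and feeder lists moved with no filter on low counts, which also gave 220 lower genes. At 5 CPM the medians of the primitive endoderm, 2-cell and X-linked lists moved, to -1.11, -0.92 and -3.43. Depth bounds calls through the width of the intervals, which is largest at low counts. No paired analysis was possible because each group had 1 library and the labels gave no shared replicate number.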
